A study of Mus musculus with 12 samples.

Results

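The genes described here are 45 genes of DNA replication and mitosis in 12 mouse thymic T-cell lymphomas, 4 labelled non-responder and 8 labelled responder. They were chosen by name, as the rows of the deposited table whose Ensembl identifiers carry the 45 listed symbols. All 45 were found among the 37991 genes of the table, and all 45 passed the filter on low counts that left 18612 genes for testing. The tumours arose in C57BL/6 mice of genotype p53neo/R172H;R26CreER/GNZ. Every mouse in both groups thus carried an R172H mutant Trp53 allele, a p53neo allele and a Cre recombinase that tamoxifen switches on. Every mouse also received weekly tamoxifen by intraperitoneal injection, given to reactivate wild-type p53 once magnetic resonance imaging (MRI) had shown a tumour. The response, growth or shrinkage, was read from the scans, and each tumour was frozen after the last one. The Cre sits at the R26 locus, which is active in most cell types, so it is not confined to T cells. No untreated tumour is among the 12, so the comparison is between outcomes under the same treatment. The labels give no age, tumour size or batch.

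A dividing cell copies its genome in S phase and separates the copies in mitosis. The MCM helicase is loaded onto DNA by Cdc6 and Cdt1, started with Cdc45 and the GINS complex, and followed by the polymerases, their clamp PCNA and a supply of nucleotides. Cyclin E and the E2F transcription factors open this programme. Cdk1 with cyclins A and B, the Polo-like and Aurora kinases, the kinetochore proteins and the kinesins of the spindle midzone carry out mitosis. Transcription of the mitotic genes depends on B-Myb and FoxM1, and in arrested cells the DREAM complex of E2F4 or E2F5, p107 or p130 and the MuvB core represses both sets. p53 acts on them through p21, the product of Cdkn1a.

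Library totals ran from 20796860 to 30265753 counts. Levels are given as CPM, counts brought to a common library size that was scaled by the trimmed mean of M values (TMM), and values in a list follow the tumour numbers of the group. CPM are not divided by gene length, so levels are compared between tumours and not between genes. Rag1, a subunit of the recombinase that rearranges T-cell receptor genes in immature thymocytes, was at 1496, 168, 1754 and 1263 CPM in the 4 non-responders. Among responders it was at 0.455, 2.90, 0.510, 0.409 and 0.713 CPM in tumours 4 to 8 and at 894, 1203 and 1260 CPM in tumours 1 to 3. Responders 4 to 8, with Rag1 below 10 CPM, are called Rag1-low below, and responders 1 to 3, with Rag1 above 100 CPM, Rag1-high. All 4 non-responders were above 100 CPM. The labelled cell type was checked against 12 T-cell genes, all of which were detected: their summed level was between 2709 and 3414 CPM in non-responders and between 1058 and 3279 CPM in responders. Trp53 itself was at 63.0 to 73.3 CPM in non-responders and 47.1 to 111 CPM in responders, a check of total transcript only, since the counts do not separate the alleles. These are bulk tumours, in which fewer dividing cells and less of a transcript per cell cannot be told apart.

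Most of the 45 genes had higher estimates in non-responders, and none passed the test. The log2 fold change, non-responder minus responder, was above 0 for 42 of 45 members, where 48.5% of all 18612 genes were above 0. Its median over the members was 0.42, between -0.20 for Ccne1 and 0.88 for Cdc25c, beside a median of -0.02 over all genes tested. By edgeR's quasi-likelihood test with Benjamini-Hochberg adjustment, 0 members and 0 of all genes (0%) were called at an adjusted p under 0.05. At an unadjusted p under 0.05 there were 10 members, all higher, where 7.73% of all genes were higher and 16.1% lower. Those 10 were Mcm7, Cdc45, Rrm2, Cdk1, Cdc25c, Foxm1, Cdc20, Cenpf, Prc1 and Kif20a. For no member did the ranges of the groups lie apart, where 0.951% of all genes lay apart and higher and 1.18% apart and lower.

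The tool and single tumours moved these counts. With limma-voom and quality weights, 10 members were called, all higher, where 4.37% of all genes were called higher and 4.48% lower, while DESeq2 called 0 members and called 2.8% of genes higher and 10.4% lower. The members called by limma-voom were Cdc25c, Prc1, Kif20a, Foxm1, Aurka, Cdc20, Rrm2, Cdk1, Mcm7 and Ccnb1, with adjusted p between 0.0360 and 0.0467. The edgeR count of 10 members at an unadjusted p under 0.05 became 1 without non-responder 4, 20 without responder 2 and 16 without responder 3.

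**Figure D1:**
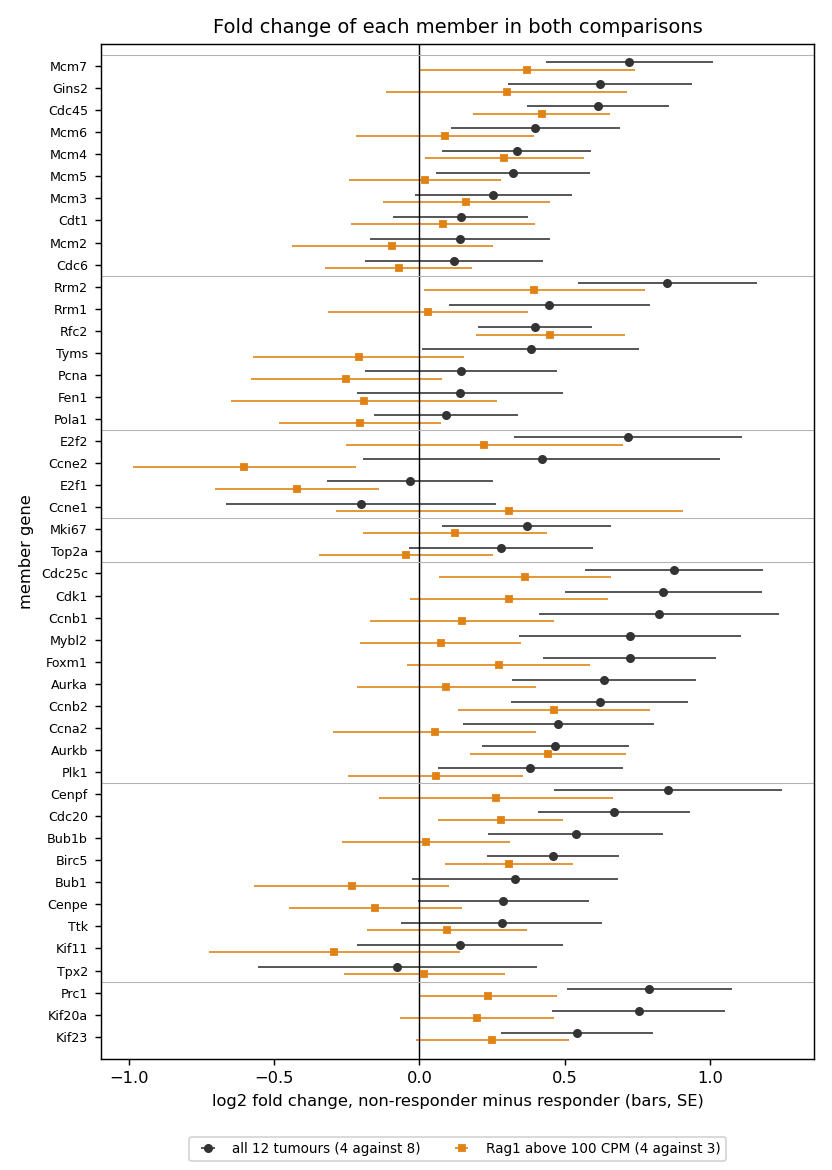
Log2 fold change of each of the 45 members, non-responder minus responder, with bars of 1 SE, grouped by role; black circles are the edgeR fit on all 12 tumours and orange squares the fit on the 7 tumours with Rag1 above 100 CPM. In the first fit 42 members lie to the right of 0 and in the second 33 do, and every estimate of the mitotic entry genes lies to the right of 0 in both.

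Markers of other cell types stand beside every result above, and most had lower estimates in non-responders. Of 51 tested genes in 9 lists, 46 had fold changes below 0, and 36 of them had an unadjusted p under 0.05, where 16.1% of all genes were lower at that level. edgeR called 0 of the 51. DESeq2 called 31 lower, where it called 10.4% of all genes lower, and limma-voom called 5 lower, where it called 4.48%. The fibroblast list had 3 of 6 genes below 0 and the macrophage list 4 of 6, while the other 7 lists had every tested gene below 0. The 7 neutrophil genes summed to 2.75 to 20.8 CPM in non-responders and 20.3 to 650 CPM in responders, and Elane was at 0 in every non-responder. The 6 muscle genes summed to 5.27 to 19.3 CPM in non-responders and 12.7 to 451 CPM in responders, and the 5 adipocyte genes to 29.2 to 52.6 CPM and 42.9 to 1114 CPM in the same order. For the 5 erythroid genes the sums were 4.31 to 19.5 CPM in non-responders and 9.83 to 279 CPM in responders, and for the 6 B-cell genes 7.98 to 38.4 CPM and 17.2 to 217 CPM. The 5 endothelial genes summed to 87.8 to 148 CPM in non-responders and 141 to 529 CPM in responders. The 6 macrophage genes summed to 383 to 1040 CPM in non-responders and 336 to 1325 CPM in responders, the 6 fibroblast genes to 393 to 1233 CPM and 264 to 1517 CPM, and the 6 thymic epithelium genes to 12.5 to 152 CPM and 30.3 to 208 CPM. With the mean score of these 9 lists as a covariate, 12 of the 45 members stayed above 0 and their median log2 fold change was -0.11. Only responder 8, at 2.16, had a score within the 1.58 to 2.23 of the non-responders, and all other responders were higher. Label and score thus largely went together, and the part of other cells in the members' differences was not tested.

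The helicase and its loaders were described by 10 members, all with fold changes above 0 and a median of 0.33. Mcm2, a subunit of the helicase ring, was at 247, 273, 281 and 447 CPM in non-responders, against 128, 275, 197, 314 and 359 CPM in Rag1-low responders and 175, 399 and 418 CPM in Rag1-high responders (edgeR log2 fold change 0.14 with SE 0.31 and adjusted p = 0.814). The groups overlapped widely, responder 4 was the lowest tumour, and without non-responder 4 the fold change was -0.08. Cdc45, which joins the helicase as origins fire, was at 85.3, 84.8, 75.3 and 105 CPM in non-responders, against 31.7, 68.3, 34.1, 68.0 and 60.4 CPM in Rag1-low and 46.0, 84.3 and 64.3 CPM in Rag1-high responders (edgeR log2 fold change 0.61 with SE 0.24 and adjusted p = 0.158). Every non-responder lay above every Rag1-low responder, and responder 2 lay within the non-responders. Mcm7, another ring subunit, had the highest fold change of the 10, with 388, 445, 402 and 755 CPM in non-responders, against 177, 279, 233, 305 and 269.7 CPM in Rag1-low and 204, 454 and 489 CPM in Rag1-high responders (edgeR log2 fold change 0.72 with SE 0.29 and adjusted p = 0.158). Its level in non-responder 4 stood far above the other 11 tumours. Annotated exons of Mcm7 overlap those of Cops6 and Ap4m1 on the opposite strand. The strand setting of the counting was not given, so how reads there were counted is not known. The other 7, Mcm3, Mcm4, Mcm5, Mcm6, Gins2, Cdc6 and Cdt1, had fold changes between 0.12 and 0.62. The highest of these was that of Gins2, of whose 4097 annotated exon bases 2758 overlap Gse1 on the opposite strand, with the same limit. Non-responder 4 was the highest tumour for 7 of the 10.

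Members of DNA synthesis and nucleotide supply numbered 7, all above 0 with a median of 0.38. Rrm2, the small subunit of ribonucleotide reductase, was at 184, 128, 218 and 363 CPM in non-responders, against 82.3, 106, 85.2, 98.6 and 109.9 CPM in Rag1-low and 109, 184 and 212 CPM in Rag1-high responders (edgeR log2 fold change 0.85 with SE 0.31 and adjusted p = 0.135). All 4 non-responders were above all 5 Rag1-low responders, while the Rag1-high responders lay among the non-responders or below them. Pcna, the sliding clamp, was at 328, 367, 334 and 616 CPM in non-responders, against 143, 398, 254, 326 and 398 CPM in Rag1-low and 312, 657 and 493 CPM in Rag1-high responders (edgeR log2 fold change 0.14 with SE 0.33 and adjusted p = 0.824). Responder 2 had the highest Pcna of the 12 tumours and non-responder 4 the next, and the remaining non-responders were in the middle of the responders. Without non-responder 4 the fold change of Pcna was -0.12. Rfc2, a subunit of the clamp loader, was at 90.4, 127, 122 and 148 CPM in non-responders, against 69.8, 95.8, 84.1, 126 and 98.9 CPM in Rag1-low and 61.1, 94.7 and 109.9 CPM in Rag1-high responders (edgeR log2 fold change 0.40 with SE 0.20 and adjusted p = 0.235). Its groups overlapped. Rrm1, Tyms, Pola1 and Fen1 had fold changes of 0.45, 0.38, 0.09 and 0.14. Fen1, the flap nuclease, was counted at 2.21 to 6.80 CPM in the 12 tumours. Of its 2422 annotated exon bases, 2039 overlap genes on the opposite strand, and how reads there were counted is not known.

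The cyclin E and E2F genes were divided in direction, with 2 of 4 above 0 and a median of 0.19. Ccne1 was at 5.91, 38.7, 24.3 and 30.1 CPM in non-responders, against 18.1, 26.9, 30.3, 38.7 and 54.0 CPM in Rag1-low and 12.8, 14.1 and 32.4 CPM in Rag1-high responders (edgeR log2 fold change -0.20 with SE 0.47 and adjusted p = 0.824). Non-responder 1 was the lowest of the 12 tumours and responder 8 the highest. Ccne2, the other cyclin E gene, was at 71.9, 40.2, 89.3 and 105 CPM in non-responders, against 22.2, 24.4, 19.2, 16.4 and 28.5 CPM in Rag1-low and 65.1, 162 and 120.1 CPM in Rag1-high responders (edgeR log2 fold change 0.42 with SE 0.62 and adjusted p = 0.703). The Rag1-low responders formed a narrow group below all 7 other tumours. E2f1, an activator of the S-phase genes, was at 15.5, 15.3, 17.5 and 21.4 CPM in non-responders, against 9.26, 19.1, 13.8, 12.9 and 17.95 CPM in Rag1-low and 14.6, 29.1 and 26.0 CPM in Rag1-high responders (edgeR log2 fold change -0.03 with SE 0.29 and adjusted p = 0.957), with full overlap. E2f2, a related activator, had a fold change of 0.72 (SE 0.39) and lay between 57.0 and 178 CPM in non-responders and between 33.0 and 148 CPM in responders. Without non-responder 1, the fold change of Ccne1 was 0.13, and that of E2f1 crossed 0 when non-responder 1, non-responder 2, responder 2 or responder 3 was left out.

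Mki67 encodes Ki-67, which coats mitotic chromosomes and is the standard stain for cycling cells. It was at 1958, 1333, 1271 and 2150.2 CPM in non-responders, against 769.6, 1675, 858, 853 and 1644 CPM in Rag1-low and 959, 1855 and 1779 CPM in Rag1-high responders (edgeR log2 fold change 0.37 with SE 0.29 and adjusted p = 0.457). Responders 2, 3, 5 and 8 lay within the range of the non-responders, and responders 1, 4, 6 and 7 below it. Top2a, the topoisomerase that untangles sister chromatids, was at 1992, 1171, 1271 and 1804 CPM in non-responders, against 461, 1337, 896, 1224 and 1558 CPM in Rag1-low and 1158, 2137 and 1505 CPM in Rag1-high responders (edgeR log2 fold change 0.28 with SE 0.32 and adjusted p = 0.611). Its highest level was in responder 2 and its lowest in responder 4, so both ends of the range were responders.

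The 10 genes of mitotic entry had the highest median of the larger roles, 0.68, and all 10 were above 0. Cdc25c, the phosphatase that activates Cdk1, was at 19.8, 20.4, 17.9 and 26.2 CPM in non-responders, against 6.50, 10.4, 7.24, 8.48 and 10.4 CPM in Rag1-low and 10.02, 18.1 and 20.7 CPM in Rag1-high responders (edgeR log2 fold change 0.88 with SE 0.31 and adjusted p = 0.131). Every non-responder lay above the 5 Rag1-low responders and responder 1, and responders 2 and 3 lay inside the non-responders. Cdk1, the mitotic kinase, was at 202, 156, 149 and 301 CPM in non-responders, against 52.1, 92.3, 65.9, 101 and 105 CPM in Rag1-low and 107, 229.7 and 149 CPM in Rag1-high responders (edgeR log2 fold change 0.84 with SE 0.34 and adjusted p = 0.164). Its partner Ccnb1, cyclin B1, was at 136, 181, 117 and 204 CPM in non-responders, against 33.5, 64.2, 49.6, 98.4 and 44.8 CPM in Rag1-low and 83.1, 185 and 162 CPM in Rag1-high responders (edgeR log2 fold change 0.83 with SE 0.41 and adjusted p = 0.241). For both, the non-responders were above all Rag1-low responders and mixed with the Rag1-high ones. Plk1, the Polo-like kinase, was at 75.5, 67.5, 50.2 and 81.9 CPM in non-responders, against 24.1, 78.8, 32.2, 45.8 and 44.0 CPM in Rag1-low and 37.5, 81.3 and 78.5 CPM in Rag1-high responders (edgeR log2 fold change 0.38 with SE 0.32 and adjusted p = 0.482). Responder 5 was as high as the non-responders here, unlike for Cdk1. Aurkb, the kinase of the chromosomal passenger complex, was at 114, 116, 96.7 and 150.2 CPM in non-responders, against 48.2, 93.9, 62.0, 94.9 and 129 CPM in Rag1-low and 54.9, 100.1 and 106 CPM in Rag1-high responders (edgeR log2 fold change 0.47 with SE 0.25 and adjusted p = 0.275). Responder 8 was second to non-responder 4 for this gene.

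The transcription factors of the mitotic genes were Foxm1 and Mybl2. Foxm1 was at 112, 71.0, 88.2 and 101 CPM in non-responders, against 35.0, 52.2, 31.2, 46.9 and 56.0 CPM in Rag1-low and 40.8, 100.1 and 88.9 CPM in Rag1-high responders (edgeR log2 fold change 0.72 with SE 0.30 and adjusted p = 0.169). Mybl2, the gene of B-Myb, was at 69.3, 76.5, 65.8 and 115 CPM in non-responders, against 16.3, 44.3, 32.7, 29.0 and 41.3 CPM in Rag1-low and 55.5, 99.7 and 76.5 CPM in Rag1-high responders (edgeR log2 fold change 0.73 with SE 0.38 and adjusted p = 0.263). All non-responders exceeded all Rag1-low responders for both genes. Ccna2, Ccnb2 and Aurka, which encode cyclins A2 and B2 and the centrosomal Aurora kinase, had fold changes of 0.48, 0.62 and 0.63.

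The spindle and kinetochore genes were above 0 for 8 of 9, with a median of 0.33. Birc5, the gene of survivin, was at 102, 97.4, 102 and 123 CPM in non-responders, against 42.6, 83.9, 51.8, 89.4 and 94.4 CPM in Rag1-low and 60.3, 106 and 88.5 CPM in Rag1-high responders (edgeR log2 fold change 0.46 with SE 0.23 and adjusted p = 0.236). The non-responders were close together, and every Rag1-low responder lay below them. Tpx2, which targets Aurora A to the spindle, was at 190.2, 178, 139 and 241 CPM in non-responders, against 117, 125, 72.5, 598 and 116 CPM in Rag1-low and 120.0, 228 and 204 CPM in Rag1-high responders (edgeR log2 fold change -0.08 with SE 0.48 and adjusted p = 0.937). Responder 7 alone reached 598 CPM, and without it the fold change of Tpx2 was 0.41, while without non-responder 3 it was 0.07. Cdc20 and Cenpf had fold changes of 0.67 (SE 0.26) and 0.86 (SE 0.39). Cdc20 activates the anaphase-promoting complex and Cenpf is a kinetochore protein. The checkpoint kinases Bub1, Bub1b and Ttk and the motors Kif11 and Cenpe had fold changes between 0.14 and 0.54. For Kif11, non-responders 1 and 4 were at 472 and 460 CPM and non-responders 2 and 3 at 184 and 185 CPM, so the group was split.

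Cytokinesis was represented by Prc1, Kif20a and Kif23, whose products build the midzone between the separating chromosomes, and the 3 fold changes had a median of 0.76. Prc1 was at 185, 142, 133 and 173 CPM in non-responders, against 54.3, 68.4, 71.8, 68.6 and 68.3 CPM in Rag1-low and 94.1, 167 and 139.9 CPM in Rag1-high responders (edgeR log2 fold change 0.79 with SE 0.28 and adjusted p = 0.135). The Rag1-low responders lay close together and below the other 7 tumours. Kif20a and Kif23 had fold changes of 0.76 (SE 0.30) and 0.54 (SE 0.26). Annotated exons of Kif20a overlap those of Cdc23 over 1271 bases.

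**Figure D2:**
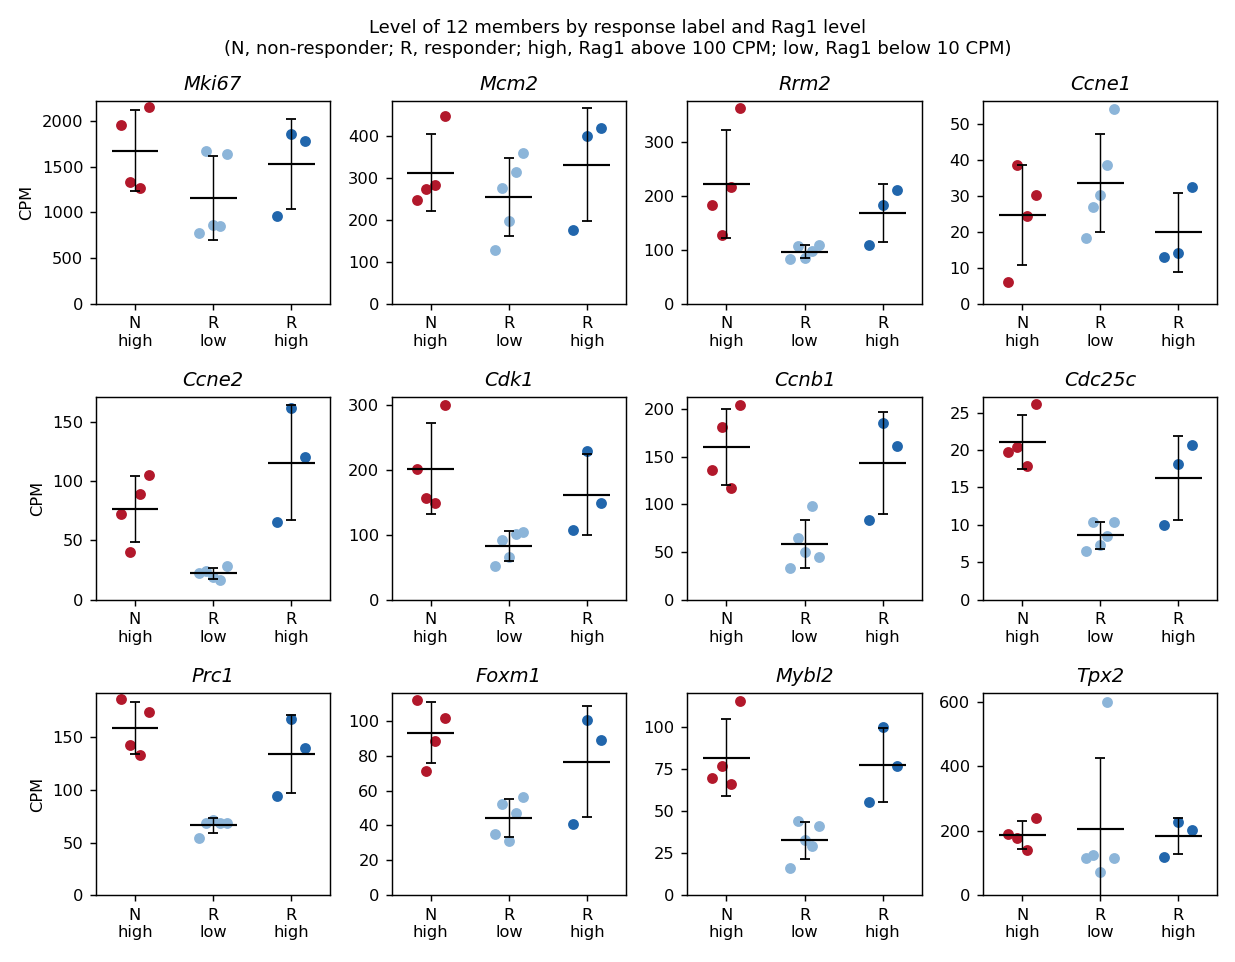
CPM of 12 members in non-responders (N high, n = 4), Rag1-low responders (R low, n = 5) and Rag1-high responders (R high, n = 3); points are tumours, horizontal lines group means and bars 1 SD, with the lower end of the Tpx2 bar cut off at 0. For Cdk1, Ccnb1, Cdc25c, Prc1, Foxm1 and Mybl2 the non-responders lie above the Rag1-low responders and overlap the Rag1-high ones, while Ccne1 overlaps in all 3.

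Promoters of the members were searched for the sequence elements known from cell cycle genes: E2F sites in S-phase promoters, and the cell cycle gene homology region (CHR) with CCAAT boxes in mitotic promoters. The RefSeq promoter table of GRCm38.p6 held 35 of the 45 members, 18 of mitosis and 17 of replication, and 27025 genes in all. In the 250 bases before the start, on either strand, the CHR letters TTTGAA stood in 38.9% of mitosis members and 23.5% of replication members, where 18.3% of all genes held them. The letters CCAAT stood in 88.9% of mitosis members and 64.7% of replication members, against 37.5% of all genes. E2F letters (TTTCCCGC, TTTGGCGC, TTTCGCGC or TTTGCCGC) stood in 5.56% of mitosis members and 29.4% of replication members, against 2.16% of all genes. A match is a run of letters and not a shown binding site.

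The next 5 windows show these elements in a gene with all 3 of them, in 2 further mitosis genes and in 2 helicase genes. Each holds the bases from 150 before the RefSeq start, read 5′ to 3′ along the gene, with exon bases of other annotated transcripts removed. Capitals mark the matched letters, on either strand.
Cdk1 (GRCm38.p6, chr10:69352939-69353062, minus strand): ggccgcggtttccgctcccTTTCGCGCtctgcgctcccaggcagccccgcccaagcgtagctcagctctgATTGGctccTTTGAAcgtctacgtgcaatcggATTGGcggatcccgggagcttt
Cdc20 (GRCm38.p6, chr4:118437353-118437493, minus strand): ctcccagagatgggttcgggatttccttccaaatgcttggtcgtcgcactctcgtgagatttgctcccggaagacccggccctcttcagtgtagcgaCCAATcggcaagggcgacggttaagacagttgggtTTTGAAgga
Top2a (GRCm38.p6, chr11:99024190-99024339, minus strand): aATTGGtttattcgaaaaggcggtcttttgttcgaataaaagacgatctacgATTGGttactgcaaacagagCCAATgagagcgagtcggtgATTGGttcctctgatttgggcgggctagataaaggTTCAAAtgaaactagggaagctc
Mcm5 (GRCm38.p6, chr8:75109359-75109508, plus strand): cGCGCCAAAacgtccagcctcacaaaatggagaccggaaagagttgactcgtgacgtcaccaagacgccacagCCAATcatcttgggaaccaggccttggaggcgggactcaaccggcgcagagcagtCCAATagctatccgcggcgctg
Mcm6 (GRCm38.p6, chr1:128359706-128359855, minus strand): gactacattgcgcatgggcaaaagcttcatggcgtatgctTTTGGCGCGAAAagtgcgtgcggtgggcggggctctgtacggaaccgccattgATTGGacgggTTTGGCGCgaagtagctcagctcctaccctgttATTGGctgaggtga
Cdk1 carries an E2F match, a CHR match and 2 CCAAT matches, and was the one mitosis member with E2F letters. Cdc20 and Top2a carry CHR and CCAAT matches without E2F letters, and Mcm5 and Mcm6 carry E2F and CCAAT matches without CHR letters. In Mcm6 the first capitals hold 2 overlapping E2F matches on opposite strands. Top2a, with the CHR and 4 CCAAT matches, had a fold change of 0.28, and Cdk1 one of 0.84.

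Within the tumours with Rag1 above 100 CPM, the members' median log2 fold change was 0.09 by edgeR, and again none passed the test. The median changed sign with the tool: it was 0.10 by DESeq2 and -0.03 by limma-voom, which left 21 of 45 members above 0. The fit on the 4 non-responders and the 3 Rag1-high responders called 0 of 17470 genes (0%) and 0 members, and 0 members had an unadjusted p under 0.05, where 1.93% of genes were higher and 3.55% lower at that level. DESeq2 called 0 members, and of all genes 0.103% higher and 0.223% lower, and limma-voom called 0% in either direction. The log2 fold change was above 0 for 33 of 45 members, where 49.9% of genes were. Over all 12 tumours the median was 0.42, but the fits share all 4 non-responders and 3 of the responders, and the difference between them was not tested. With the Rag1 class as a term in the fit on all 12 tumours, 33 members were above 0 and 0 had an unadjusted p under 0.05. No member's ranges lay apart, where 3.29% of genes lay apart and higher and 2.79% apart and lower.

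The roles kept different positions in that fit. By edgeR all 10 mitotic entry genes and all 3 cytokinesis genes were above 0, with medians of 0.21 and 0.23, and the synthesis genes had a median of -0.19 with 3 of 7 above 0. By limma-voom 6 of the 10 mitotic entry genes were above 0, with a median of 0.07, and Plk1, Ccna2, Aurka and Mybl2 were at -0.09, -0.10, -0.04 and -0.03, while the 3 cytokinesis genes were above 0 with a median of 0.13. The lowest p among the members above 0 belonged to Cdc45 (edgeR log2 fold change 0.42 with SE 0.24 and adjusted p = 0.884), Rfc2 (edgeR log2 fold change 0.45 with SE 0.26 and adjusted p = 0.888) and Aurkb (edgeR log2 fold change 0.44 with SE 0.27 and adjusted p = 0.893). In CPM, the means were 87.5 ± 12.2 in non-responders and 64.9 ± 19.1 in Rag1-high responders for Cdc45 (SD, n = 4 and 3). Among those below 0 it belonged to Ccne2 (edgeR log2 fold change -0.60 with SE 0.38 and adjusted p = 0.893), E2f1 (edgeR log2 fold change -0.42 with SE 0.28 and adjusted p = 0.896) and Pcna (edgeR log2 fold change -0.25 with SE 0.33 and adjusted p = 0.950). For Ccne2 the means were 76.6 ± 27.7 CPM in non-responders and 116 ± 48.4 CPM in Rag1-high responders (SD, n = 4 and 3), a difference of the size of the spread. Mki67 had a fold change of 0.12 with a 95% interval from -0.50 to 0.75.

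Single tumours moved these values. Without responder 1 the count of members above 0 was 16 and the median -0.12, and without responder 2 they were 39 and 0.33. Without non-responder 4 the count was 22 and the median -0.00099, and without responder 2 the fold change of Pcna was 0.02. Responder 1 also had the most other-cell signal of the 7 tumours, a mean marker score of 4.17 (log2 CPM) against 2.87 and 2.77 in the other Rag1-high responders and 1.58 to 2.23 in non-responders. Every Rag1-high responder had a higher score than every non-responder, so label and score cannot be told apart in these tumours. With that score as a covariate, 2 of 45 members were above 0 and the median was -0.50.

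Within the responders, 43 of 45 members were lower on average in the 5 Rag1-low tumours than in the 3 Rag1-high tumours, where 45.1% of 18720 genes were lower. This contrast rests on a split made from measured Rag1 and is a description with no test. The median difference of mean log2 CPM, Rag1-low minus Rag1-high, was -0.62 over the members and 0.08 over all these genes. Ranges lay apart for 5 members, Ccne2, Cdk1, Mybl2, Prc1 and Kif20a, all lower in Rag1-low tumours, where 9.02% of genes lay apart and lower and 9.56% apart and higher. The count of 5 in 45 is near that background and is no result about the members. Ccne2 had the widest gap, with 16.4 to 28.5 CPM in Rag1-low responders and 65.1 to 162 CPM in Rag1-high responders, a difference of -2.31 in mean log2 CPM. Ccnb1, Mybl2, Cenpf and Tyms followed with differences of -1.32, -1.28, -1.04 and -1.03. The members higher in Rag1-low responders were Ccne1, by 0.80, and Rfc2, by 0.11. The cyclin E genes thus lay on opposite sides of this split.

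Set against the Rag1-low responders alone, the non-responders were separate for more members. For 16 of 45 members every non-responder lay above every Rag1-low responder, where 10.1% of genes did so and 12.8% lay apart and lower. The 16 were Mcm7, Cdc45, Rrm2 and Ccne2 among the 21 replication members and Cdk1, Ccnb1, Cdc25c, Aurka, Foxm1, Mybl2, Cdc20, Bub1b, Cenpf, Birc5, Prc1 and Kif20a among the 24 mitosis members. No member lay apart in the other direction. The response label and the Rag1 level cannot be told apart in this contrast, since no non-responder was Rag1-low. T-cell identity genes summed to 1058 to 2103 CPM in Rag1-low responders and 2220 to 3279 CPM in Rag1-high responders, so the members' lower levels went with lower T-cell levels, whose part was not tested.

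**Figure D3:**
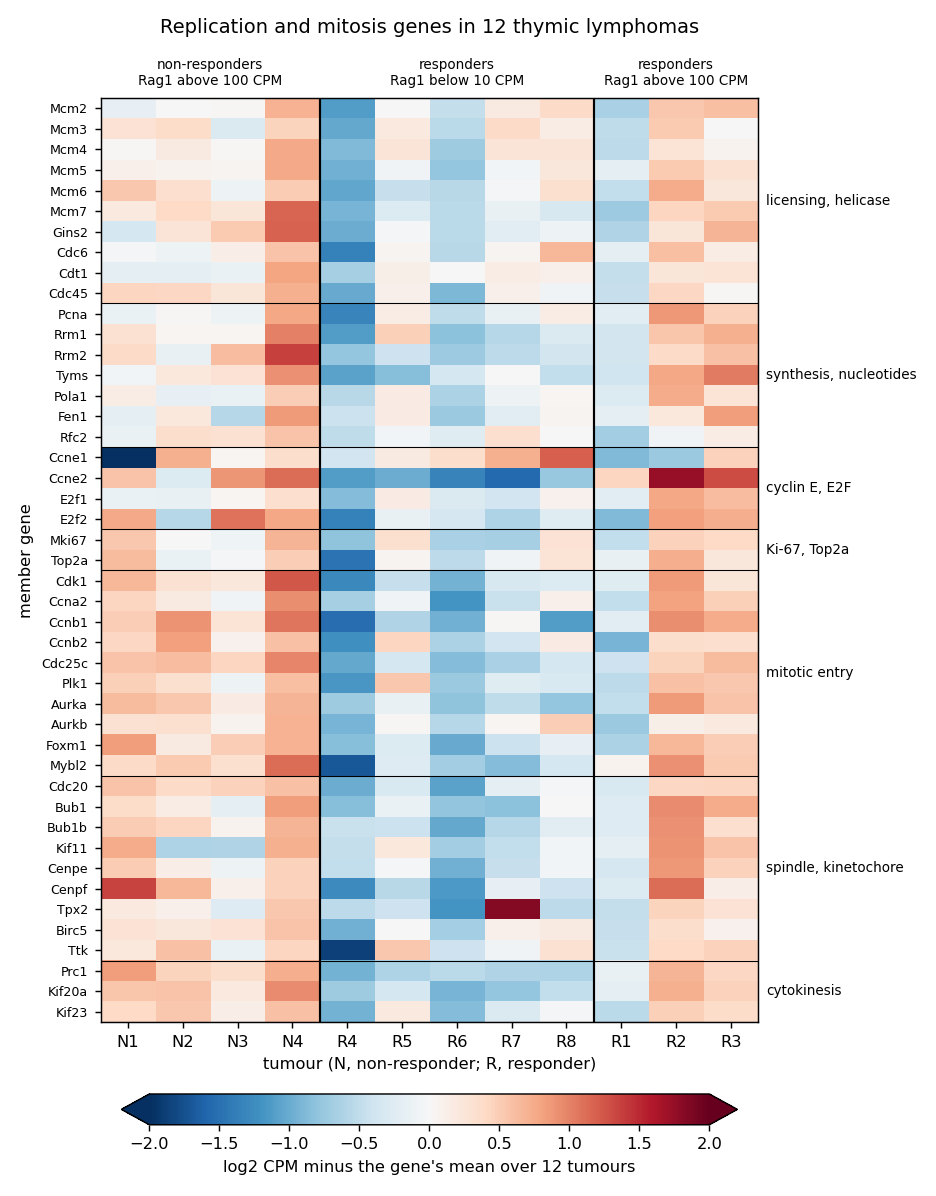
Log2 CPM of each of the 45 members minus its mean over 12 tumours, by tumour (columns: non-responders, Rag1-low responders, Rag1-high responders) and by role (rows); the colour scale ends at 2 on either side. Non-responder 4 is above the mean for 45 of 45 members and responder 4 below it for 45 of 45, and responders 2 and 3 are coloured like the non-responders.

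Tumour by tumour, the 45 members were mostly high or low together at either end of the range and split in between. Responders 5 and 8 each had 20 members above the mean and 25 below it, and non-responder 3 had 30 and 15. The median deviation of a tumour's log2 CPM from each member's mean was 0.39, 0.23, 0.07 and 0.70 in non-responders 1 to 4. It was -0.96, -0.04, -0.69, -0.21 and -0.04 in the Rag1-low responders and -0.41, 0.59 and 0.46 in the Rag1-high responders. The 4 non-responders were all above 0, and so were responders 2 and 3, while the other 6 responders were below 0. Non-responder 4 was the highest tumour for 23 members and responder 2 for 12, and responder 4 was the lowest for 31 and responder 6 for 11. Responders 4, 5 and 6 also had the highest other-cell marker scores, 5.31, 4.86 and 5.15, and responder 4 the lowest T-cell sum, 1058 CPM. Responder 8 had a score of 2.16, within the non-responders, and a member deviation of -0.04. The median SD of the members' log2 CPM over the 12 tumours was 0.60, close to the 0.57 of all genes tested.

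The balance of mitosis to replication differed between tumours as well. The median deviation of the 24 mitosis members minus that of the 21 replication members was 0.48, 0.29, 0.05 and -0.08 in non-responders. It was 0.05, -0.20, -0.29, -0.36 and -0.17 in Rag1-low responders and 0.09, 0.17 and -0.01 in Rag1-high responders. Non-responder 1 thus had mitosis genes at 0.51 and replication genes at 0.03, and responder 7 had them at -0.41 and -0.05. Non-responder 4 was the one non-responder below 0, and responder 4 the one Rag1-low responder above 0. Since the balance was computed over members chosen with earlier results known, it is given with no test. The wider lists below gave balances of 0.31, 0.17, 0.01 and -0.02 in non-responders, 0.12, -0.02, -0.22, -0.12 and -0.16 in Rag1-low responders and -0.01, 0.05 and 0.03 in Rag1-high responders.

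**Figure D4:**
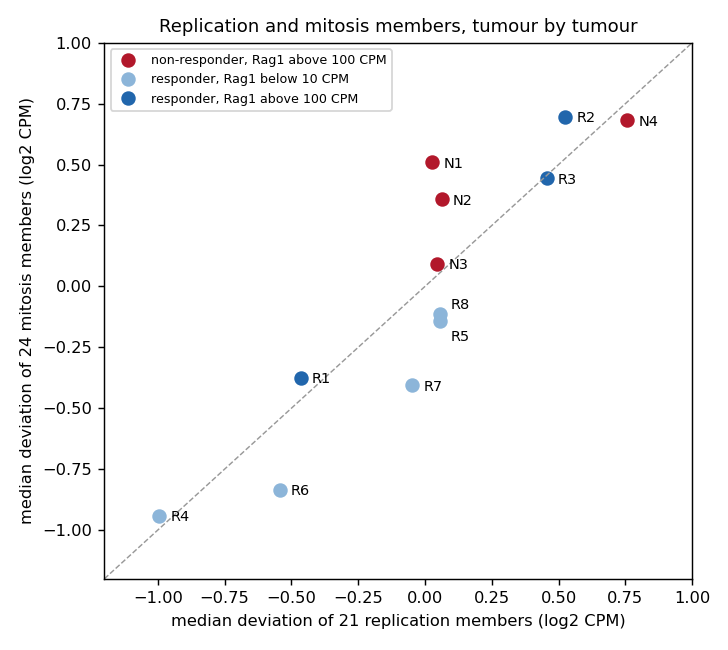
Median deviation of the 21 replication members (x axis, log2 CPM) and the 24 mitosis members (y axis, log2 CPM) from each gene's mean, 1 point per tumour, with the line of equal deviation dashed. Non-responders 1, 2 and 3 lie above the line, non-responder 4 just below it, and 4 of the 5 Rag1-low responders below it.

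Genes of the wider machinery, listed by function, were mostly above 0 as well. Of 60 further replication genes, 52 were above 0 in the fit on all 12 tumours, with a median of 0.25, and 5 were higher and 0 lower at an unadjusted p under 0.05, where 7.73% of all genes were higher and 16.1% lower. Of 73 further mitosis genes, 71 were above 0, with a median of 0.43, and 21 were higher and 1 lower at that level. The 5 of 60 is near the share over all genes. edgeR and DESeq2 called none of these genes, while limma-voom called 4 of the replication and 8 of the mitosis genes, all higher, where it called 4.37% of all genes higher. The lowest p among higher genes belonged to Cenpn, a centromere protein (edgeR log2 fold change 1.01 with SE 0.35 and adjusted p = 0.127), Tacc3, a spindle protein (edgeR log2 fold change 0.74 with SE 0.27 and adjusted p = 0.136), and Cdca5, the cohesion factor sororin (edgeR log2 fold change 0.62 with SE 0.23 and adjusted p = 0.136). Among lower genes it belonged to E2f5, described next, to Pttg1, the gene of securin (edgeR log2 fold change -0.94 with SE 0.34 and adjusted p = 0.137), and to Dbf4, the activator of the origin-firing kinase Cdc7 (edgeR log2 fold change -1.54 with SE 1.08 and adjusted p = 0.397). Pttg1 was at 14.8, 10.8, 9.93 and 7.94 CPM in non-responders, against 15.9, 24.3, 19.0, 27.9 and 39.4 CPM in Rag1-low and 15.9, 14.9 and 9.90 CPM in Rag1-high responders. Its Rag1-low responders all lay above the non-responders, as for 12.8% of all genes. Its fold change was below 0, where 71 of the 73 further mitosis genes were above 0.

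Of the DREAM and RB complexes, 11 of 13 genes were above 0, with a median of 0.26, and E2f5 stood apart from them. E2f5, a repressor E2F of the DREAM complex, was at 5.45, 4.80, 4.04 and 4.13 CPM in non-responders, against 10.2, 8.42, 8.60, 7.78 and 7.85 CPM in Rag1-low and 7.94, 7.60 and 7.42 CPM in Rag1-high responders. Every non-responder was below every responder, as for 1.18% of all genes. Its log2 fold change was -0.84 (SE 0.21), with adjusted p = 0.117 by edgeR, 3.07e-05 by DESeq2 and 0.0371 by limma-voom, so the call depended on the tool. limma-voom also called E2f4 (adjusted p = 0.0398) and Dyrk1a, the kinase that triggers DREAM assembly (adjusted p = 0.0447), both higher in non-responders. Of all genes, that tool called 4.37% higher and 4.48% lower. In the tumours with Rag1 above 100 CPM the fold change of E2f5 was -0.75 (SE 0.29, edgeR adjusted p = 0.884). The ranges lie apart there too, which follows from the ranges over all tumours and is no further result. E2f4, the gene of the alternative E2F of that complex, was at 64.6, 91.6, 94.5 and 105 CPM in non-responders, against 29.9, 50.2, 47.8, 40.4 and 39.9 CPM in Rag1-low and 43.9, 69.4 and 119.8 CPM in Rag1-high responders (edgeR log2 fold change 0.69 with SE 0.31 and adjusted p = 0.204). In non-responders E2f4 was above and E2f5 below all Rag1-low responders. Rbl1, Rbl2 and Lin9, the genes of p107, p130 and a MuvB subunit, had fold changes of 0.19 (SE 0.23), -0.25 (SE 0.31) and 0.61 (SE 0.37). Rbl2 was highest in responders 4 and 5, at 142 and 106 CPM, and lowest in responder 8, at 42.0 CPM.

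Of the inhibitors of the cyclin-dependent kinases, 4 of 6 tested were above 0, with a median of 0.13, and edgeR and DESeq2 called none. limma-voom called 1 higher, where it called 4.37% of all genes higher. This was Cdkn2c, the gene of p18, named here, as Dyrk1a above, after its values were seen. It was at 58.0, 78.4, 97.7 and 112 CPM in non-responders, against 39.5, 40.9, 32.5, 30.1 and 38.4 CPM in Rag1-low and 29.4, 65.8 and 131 CPM in Rag1-high responders (limma-voom adjusted p = 0.0398; edgeR log2 fold change 0.77 with SE 0.38 and adjusted p = 0.241). All non-responders lay above the Rag1-low responders, and responder 3 was the highest of the 12 tumours. Cdkn1a was at 0.642, 1.13, 8.78 and 4.58 CPM in non-responders, against 12.4, 3.39, 6.08, 11.5 and 2.81 CPM in Rag1-low and 3.65, 1.03 and 12.8 CPM in Rag1-high responders (edgeR log2 fold change -0.82 with SE 0.77 and adjusted p = 0.531). The groups overlapped, and its highest levels were in responders 3 and 4, whose member deviations were 0.46 and -0.96. In the tumours with Rag1 above 100 CPM, the lowest p belonged to Lin37, a MuvB subunit (edgeR log2 fold change 0.64 with SE 0.26 and adjusted p = 0.884), Cdca5 (edgeR log2 fold change 0.49 with SE 0.30 and adjusted p = 0.893) and the mitotic kinesin Kifc1 (edgeR log2 fold change 0.40 with SE 0.25 and adjusted p = 0.893) among genes above 0. Among genes below 0 it belonged to E2f5, to Dut, the dUTPase (edgeR log2 fold change -0.69 with SE 0.29 and adjusted p = 0.884), and to Cdkn2b, the gene of p15 (edgeR log2 fold change -0.44 with SE 0.23 and adjusted p = 0.884). Lin37 was at 18.8, 15.6, 13.2 and 11.9 CPM in non-responders and 9.49, 9.61 and 9.19 CPM in Rag1-high responders, with the ranges apart, while the Rag1-low responders, at 12.3, 18.6, 13.3, 10.8 and 15.4 CPM, overlapped the non-responders.

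Tpx2 in responder 7 and Dbf4 in responder 8 stood out with their neighbours on the chromosome, a pattern looked for after their values were seen. Of the 20 nearest neighbours of Tpx2 on chromosome 2 with a mean of at least 5 CPM, 10 on each side, 12 were higher in responder 7 than in every other tumour (60%), where 6.7% of such genes on the whole chromosome were. They included H13 at 457 CPM against at most 165 CPM elsewhere, Pdrg1 at 359 against at most 59.0 CPM, Pofut1 at 212 against at most 68.8 CPM and Asxl1 at 534 against at most 232 CPM. Bcl2l1, the gene of the survival protein BCL-XL, was at 91.8 CPM against at most 54.7 CPM. For Dbf4 on chromosome 5, 14 of 20 neighbours were higher in responder 8 than in every other tumour (70%), where 4.62% of genes on that chromosome were. Dbf4 itself was at 2771 CPM there, against at most 204 CPM in the other 11 tumours. Among the neighbours, Abcb1b, which encodes a drug efflux pump, was at 3076 CPM against at most 74.1 CPM, and Sri was at 2342 against at most 106.5 CPM. The raised genes ran on past the 10 neighbours before Dbf4 in gene order, from Mterf1a to Cdk6. Cdk6 was at 692 CPM in responder 8 against at most 430 CPM elsewhere. Neighbours were taken from the RefSeq gene order only, and no DNA was measured. Without responder 8 the fold change of Dbf4 was 0.37.

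**Figure D5:**
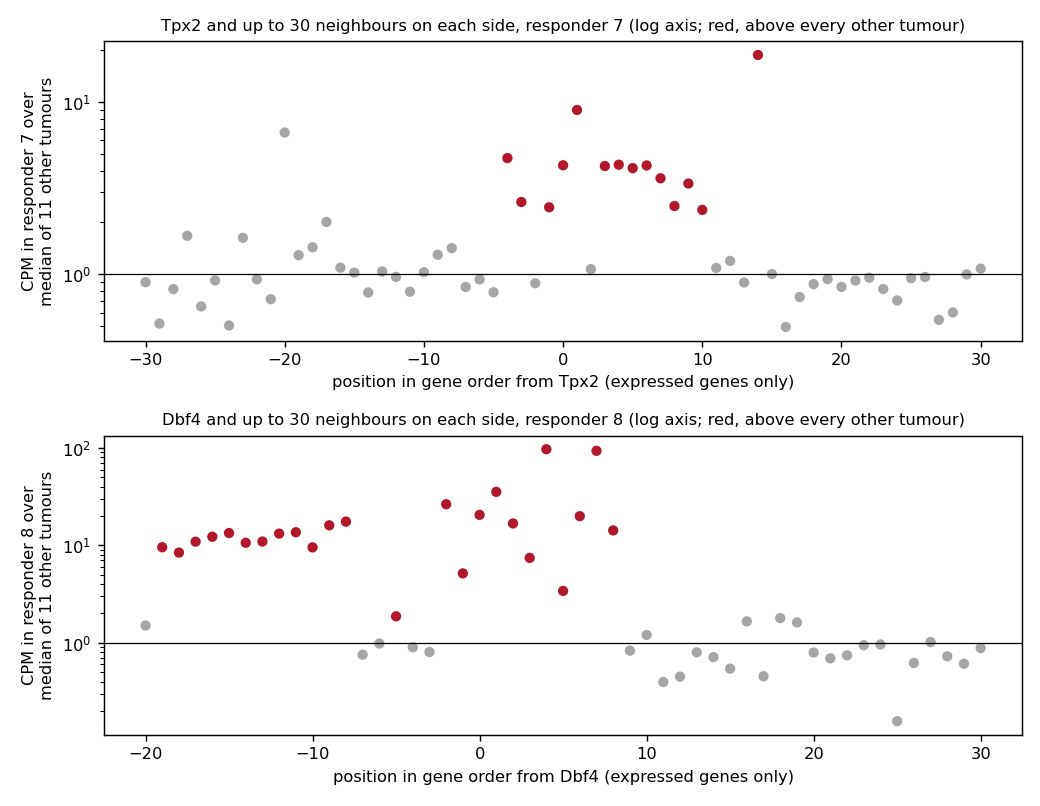
CPM in 1 tumour over the median of the other 11 (log axis) for Tpx2 in responder 7 and Dbf4 in responder 8 and for up to 30 expressed neighbours on each side in gene order; red points are higher in that tumour than in every other. Red points cluster around both genes, 12 of the 20 nearest neighbours for Tpx2 and 14 of 20 for Dbf4. To the left of Dbf4 they run on to Cdk6, at position -19 with a ratio of 9.56. Ratios near 1 also lie between red points, as for Gtpbp10 at position -4 from Dbf4 (0.90). Bpifa1, at position 14 from Tpx2, is red with a ratio of 18.7. Further along, most points are not red.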

How the data were processed

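RNA-seq libraries of 12 tumours (4 non-responder, 8 responder) were made with a TruSeq mRNA kit and sequenced as paired-end reads of 75 bases, per the labels' protocols. The authors deposited 1 table of raw counts per Ensembl gene, made with HTSeq per the submitters' processing notes, which also name DESeq and no versions. The notes name NCBIM37 and the labels' protocols mm10, so the build is not settled; the aligner and the strand setting were not given in the sources used here, and reads in overlapping genes cannot be assigned. Symbols came from GENCODE M21 and matched 32919 of 37991 identifiers. Besides the overlaps given above, Cdc25c, Prc1 and Rfc2, among others, share 623, 911 and 952 annotated exon bases with other genes. Of the symbols in the wider lists, Cdkn2d and Fam64a were not matched. Fam64a is an earlier symbol of Pimreg, which was also listed and was matched.

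The deposited counts entered the fits unchanged after a filterByExpr filter, were scaled by TMM and tested with the quasi-likelihood F test of edgeR 4.0.16 in R 4.3.3, robust, two-sided, Benjamini-Hochberg adjusted over all genes tested, with the response label as the term and a threshold of 0.05. SE is the absolute log2 fold change over the root of F. The interval given is 1.96 SE on either side, which is narrower than an interval from the F test would be. A second fit used the 7 tumours with Rag1 above 100 CPM. Log2 CPM used a prior count of 2. Limma 3.58.1 (voom with quality weights) and DESeq2 1.42.0 were alternatives, with RLE and upper-quartile scaling, other filters, no robust dispersion, the other-cell score, the Rag1 class and each tumour left out. The procedure was tested on simulated data. Library totals ran from 20796860 to 30265753 counts; tumours and not reads are the replicates.

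The members, the lists and the tests were chosen with earlier results of these data known. Values in every tumour are given for 12 preset members and for 3 members a direction and fit, by lowest p. Mcm7 was added after its values were seen. From the wider lists 3 genes a direction and fit are named, by lowest p, with Cdkn1a, Rbl1, Rbl2, E2f4 and Lin9.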

Additional observations from a re-analysis of the deposited data

Results flagged for a closer look

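Each of 60 genes, the 45 members and 15 of the wider lists, was examined for a tumour standing far from the rest of its group, in non-responders and in responders separately. Chance flags about 1 in 20 groups, and 11 of 120 groups were flagged. Non-responder 4 was far above the other non-responders for 5 replication members, with 380 CPM of Mcm4 (next highest 253 CPM), 432 CPM of Mcm5 (275 CPM), 755 CPM of Mcm7 (445 CPM), 616 CPM of Pcna (367 CPM) and 124 CPM of Cdt1 (65.1 CPM). No mitosis member was flagged in that tumour. Among responders, Cenpf was at 531 CPM in responder 2, where the next highest was 266 CPM. Fen1 was at 6.74 CPM and E2f4 at 120 CPM in responder 3, with the next highest at 4.31 and 69.4 CPM. E2f5 was at 10.2 CPM in responder 4, with the next highest at 8.60 CPM. Tpx2 was at 598 CPM in responder 7 (next highest 228 CPM), and Dbf4 at 2771 CPM in responder 8 (next highest 200.1 CPM).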

How the results depend on the processing

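No paired analysis was run, because the labels give no pairing of tumours. They give no replicate numbers either, and the tumour numbers used here follow the order of the samples within each group. In the fit on all 12 tumours, limma-voom called 1647 genes and 10 members and DESeq2 2462 genes, where edgeR called 0, and 0 to 5 genes with a tumour left out. With the other-cell score as a covariate, a score that largely went with the label, 12 members were above 0 and their median was -0.11. That covariate turned Mki67 to -0.20, Top2a to -0.47, Pcna to -0.52, Mcm2 to -0.55, Ccnb1 to -0.037, Plk1 to -0.11, Birc5 to -0.069, Foxm1 to -0.029 and Mybl2 to -0.047. The Rag1 class as a term turned Top2a to -0.037, Pcna to -0.24, Mcm2 to -0.084, Ccne1 to 0.32, Tpx2 to 0.027 and Dbf4 to 0.019. E2f1 turned to 0.0061 with no filter and 0.16 with limma-voom, Tpx2 to 0.28 with limma-voom and Dbf4 to 0.35 with DESeq2. With tumours left out in turn, fold changes ranged from -0.14 to 0.10 for E2f1, -0.22 to 0.41 for Tpx2, -1.68 to 0.37 for Dbf4, -0.48 to 0.13 for Ccne1, -0.12 to 0.31 for Pcna and -0.083 to 0.24 for Mcm2.

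In the tumours with Rag1 above 100 CPM, limma-voom left 21 members above 0 with a median of -0.026, without non-responder 4 the median was -0.00099, DESeq2 called 57 genes, and the other-cell covariate left 2 members above 0 with a median of -0.50. That covariate, which cannot be told apart from the label in these tumours, turned Cdc45 to -0.068, Aurkb to -0.21, Cdca5 to -0.33 and Kifc1 to -0.28. With tumours left out in turn, 16 to 39 members were above 0, and Pcna ranged from -0.52 to 0.017. The causes of these shifts were not tested. In the fit on all 12 tumours limma-voom also called 4 further replication genes, 8 further mitosis genes, 2 higher and 1 lower gene of the DREAM and RB complexes and 1 kinase inhibitor, and DESeq2 called E2f5. Depth limits genes of low level first, such as Fen1 at 2.21 to 6.80 CPM and E2f5 at 4.04 to 10.2 CPM.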

Other observations

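Mcm8, a helicase of the MCM family outside the replicative ring, was at 82.1 CPM in responder 7, against at most 34.5 CPM in the other 11 tumours. It lies on chromosome 2, as Tpx2 does, and 5 of its 20 nearest expressed neighbours were also higher in responder 7 than in every other tumour (25%), where 6.7% of genes on the chromosome were. In responder 7 a second neighbour group thus stood above the other tumours, and its cause was not tested. Around Dbf4 in responder 8, Crot was at 1662 CPM against at most 158.6 CPM elsewhere, Tmem243 at 1334 against at most 53.2 CPM, Dmtf1 at 1259 against at most 123 CPM and Slc25a40 at 562 against at most 23.6 CPM. These genes were picked after their values were seen.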
